A study of Mus musculus with 6 samples.

Results

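The genes described here encode the vacuolar proton pump of lysosomes (the V-ATPase) and the protein complexes through which the lysosome surface controls the kinase mTOR. They were chosen by gene symbol alone: names beginning with Atp6v0 or Atp6v1, the accessory genes Atp6ap1 and Atp6ap2, the Ragulator genes Lamtor1 to Lamtor5, the Rag GTPase genes Rraga to Rragd, and Mtor, Rptor, Rictor, Mlst8, Rheb, Tsc1, Tsc2, Flcn, Fnip1, Fnip2, Depdc5, Nprl2 and Nprl3. The rule found 47 of the 53735 gene names in the count table, among them the pseudogene Atp6v0c-ps1. Castor1 was also on the list and appears in the table under its older symbol Gatsl3, so its values are given apart and it is not counted among the 47. Of the 47 genes, 40 had enough counts to be tested, 22 of the 47 being named as subunits of the pump itself.

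The cells were mesenchymal stromal cells grown from the bone marrow of wild-type (wt) mice and sequenced as 3 control and 3 fed libraries. Starting cells were sorted from marrow as lineage-, CD45-, CD31- and CD51+, which selects against blood and endothelial cells, and were expanded at low oxygen. Cells of the fed group were kept for 24 h with fluorescently labelled apoptotic thymocytes, the dying T cell precursors of the thymus, and the label-positive cells were then sorted, so this group is a selected fraction of the fed cultures. Control cultures received no thymocytes and were sorted as well; strain, age and sex are not given in the labels, and neither is the oxygen level of the control wells during the feeding. Nothing in the labels ties the libraries to separate animals or cultures, so each p-value here reflects library-to-library spread alone, and that spread may be technical.

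The V-ATPase is built from a cytosolic V1 sector, which burns ATP, and a membrane V0 sector, through which protons pass into lysosomes and phagosomes. Engulfed cells are broken down in compartments that this pump acidifies. Ragulator is a scaffold on the lysosome membrane that touches the pump and holds the Rag GTPases, and when amino acids are plentiful the Rags bring mTOR complex 1 (mTORC1) to the lysosome, where the small GTPase Rheb switches it on. The TSC proteins turn Rheb off, GATOR1 turns RagA and RagB off, and folliculin with its FNIP partners acts on RagC and RagD.

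Libraries held between 19069074 and 22410047 counts. Levels are given as CPM, a gene's counts over the scaled total of its library times 1e6, with SDs over the 3 libraries of a group. Log2 differences are fed minus control, from edgeR, with p adjusted over all genes tested. Of 11 stromal markers, all were tested, 1 rose and 6 fell, where 20.5% of all genes tested were called higher and 19.0% lower. They summed to between 36160 and 37630 CPM in control and between 31720 and 33650 CPM in fed libraries. Most of that sum came from Col1a1 and Col1a2, for type I collagen, at 17260 and 10610 CPM or more in every library. Of 14 thymocyte markers, 5 (Cd3g, Rag2, Ptcra, Cd2 and Cd5) had no count in any library and 10 had none in any control library, and the list summed to between 0.417 and 0.896 CPM in control and between 0.644 and 1.45 CPM in fed libraries. Counts of several were low but seen mainly in fed libraries: Rag1 had 0, 2 and 1 counts in control and 7, 6 and 12 in fed libraries, and Dntt, Cd8b1 and Cd8a had none in control and 5, 1 and 3, 3, 2 and 2, and 1, 1 and 3 in fed libraries. Themis had 1, 1 and 1 counts in control and 0, 0 and 1 in fed libraries. Cd3d had 0, 1 and 0 counts in control and none in fed libraries. Lck, the only thymocyte marker tested, had 8, 11 and 15 counts in control and 7, 4 and 12 in fed libraries. It was not called (log2 difference -0.62, adjusted p = 0.269). The 12 markers of macrophages and other haematopoietic cells summed to between 9.87 and 11.3 CPM in control and between 15.6 and 17.3 CPM in fed libraries. Of the 3 tested, Lyz2 was called higher (log2 difference 1.17, adjusted p = 1.61e-06). It had 4.08, 2.88 and 3.00 CPM in control and 6.64, 7.40 and 8.37 CPM in fed libraries. Csf1r and Cd68 were not called (log2 differences -0.09 and 0.18). Of the 12 markers, 6, including Adgre1 and the C1q genes, had no count in any control library. In fed libraries these had low counts: C1qc 10, 6 and 9, C1qa 7, 4 and 7, and C1qb 4, 3 and 5. Adgre1 had 5, 3 and 3, Tyrobp 3, 4 and 2, and Itgam 0, 2 and 2. The 7 endothelial markers summed to between 5.79 and 6.11 CPM in control and between 4.05 and 5.40 CPM in fed libraries. Cdh5, Emcn and Tie1 had no count in any library, and Vwf was called lower (log2 difference -0.72, adjusted p = 0.00702). The part of thymocyte, haematopoietic or endothelial RNA in the results below was not tested.

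In fed cells the genes of the pump and of its mTOR machinery changed by small amounts in both directions. Of the 40 genes tested, 7 rose and 8 fell at an adjusted p under 0.05, which is 37.5% called where 39.5% of all 13092 genes tested were called. Among all genes 20.5% were called higher and 19.0% lower. The share called among these genes was therefore close to that of the whole transcriptome. The largest called change was the fall of Atp6ap2, by 0.33 on the log2 scale, and the largest called rise was that of Atp6v0b, by 0.28. The median log2 fold change was 0.03 over the 40 genes and -0.01 over all genes tested, and the median size of change without regard to sign was 0.12 against 0.16. Groups did not overlap for 19 of the 40 genes (47.5%, against 49.1% of all genes tested), 9 with every fed library above every control library and 10 with every fed library below, where the shares over all genes tested were 25.1% and 24.0%. The number that fell was 5 by DESeq2 and 5 without fed replicate 1. In RNA from bulk cultures, fewer cells expressing a gene and less of its RNA per cell cannot be told apart.

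**Figure D1:**
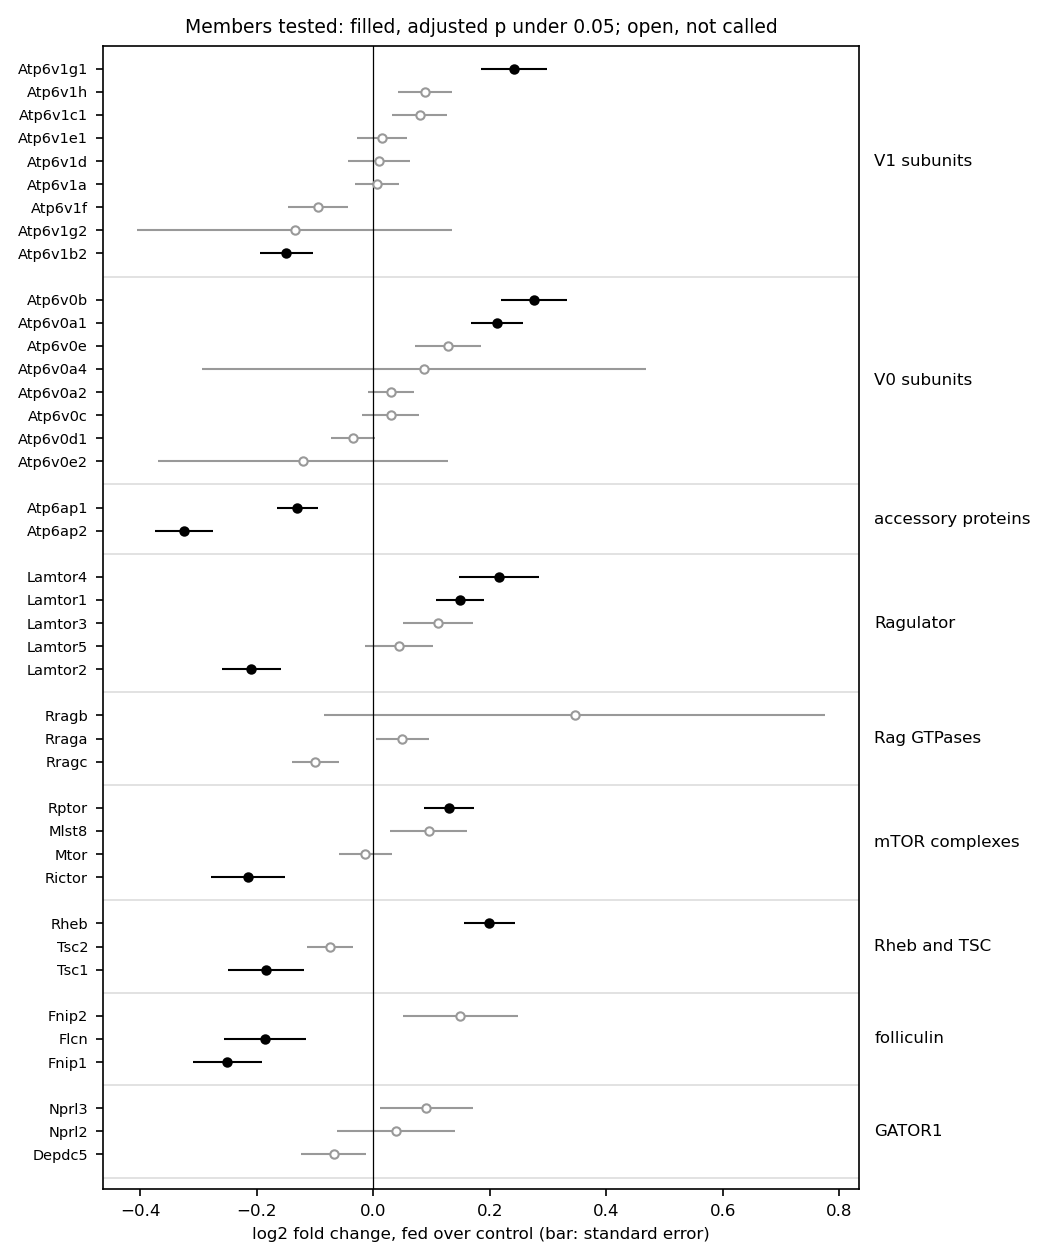
Log2 fold change of fed over control cells (x axis) for the 40 tested genes, grouped by complex, with standard errors as bars; filled points passed an adjusted p under 0.05. The 15 filled points lie between -0.33 and 0.28, 7 to the right of 0 and 8 to the left.

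Promoter sequence was looked at because transcription factors of the MiT/TFE family are known to drive many lysosomal genes through the letters CACGTG and their flanks. RefSeq promoter windows of build GRCm38.p6, from 250 bases before to 50 bases after a start site, were available for 39 of the 47 genes. The motif CACGTG reads the same on both strands, and it was present in windows of 10 of these 39 genes (25.6%) against 8.09% of all 27025 genes with a window. All 10 also held TCACGTG on at least 1 strand, which contains the shorter motif and was found for 4.29% of all genes. The longer TCACGTGA was present for 3 of the 39 (Atp6v0d1, Atp6v0e and Atp6v1a), against 1.12% of all genes. With a further G before and C after it, the motif was present for 0 of the 39, against 0.37% of all genes. All genes here means the 27025 with a window, which include many with too few counts to be tested in these cells. The shares were not taken over the tested genes alone. Of the 10 genes, 4 were called higher in fed cells (Atp6v0b, Lamtor1, Lamtor4 and Rheb) and 1 was called lower (Fnip1). The other 5 were not called (Atp6v0d1, Atp6v0e, Atp6v1a, Rragb and Rragc). Among all genes tested, 20.5% were called higher and 19.0% lower. The calls of Lamtor1 and Lamtor4 were each lost when certain single libraries were left out. A link between the motif and the changes was not tested. A match is a description of these letters and not a measured binding site. Upstream and downstream refer to the RefSeq start, which can lie inside the gene as annotated in GENCODE M21. The sites of Rheb, Atp6v1a and Atp6v0e lie within the GENCODE span of their gene. GENCODE exons cover all 250 bases before the RefSeq start for Rheb, 184 for Atp6v0e and 94 for Atp6v1a. The sites are printed with 12 bases on each side so that their flanks can be compared, 5′ to 3′ on the strand of the gene, with CACGTG in capitals.
Atp6v0b upstream site, chr4:117887348-117887377, strand -: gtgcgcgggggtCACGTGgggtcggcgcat
Atp6v0b upstream site, chr4:117887330-117887359, strand -: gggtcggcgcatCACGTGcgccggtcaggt
Atp6v0d1 site spanning the start, chr8:105566050-105566079, strand -: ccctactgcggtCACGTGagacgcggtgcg
Atp6v0e downstream site, chr17:26676387-26676416, strand +: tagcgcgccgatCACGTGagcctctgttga
Atp6v1a upstream site, chr16:44139373-44139402, strand -: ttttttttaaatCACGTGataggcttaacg
Fnip1 upstream site, chr11:54438092-54438121, strand +: tcagtttgctgcCACGTGatacggctcgtc
Lamtor1 upstream site, chr7:101905757-101905786, strand +: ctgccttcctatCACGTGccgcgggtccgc
Lamtor4 upstream site, chr5:138255350-138255379, strand +: gcagaaagttaaCACGTGaacagcttttca
Lamtor4 upstream site, chr5:138255366-138255395, strand +: tgaacagcttttCACGTGtaaaccaaacca
Rheb upstream site, chr5:24842440-24842469, strand -: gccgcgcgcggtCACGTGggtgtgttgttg
Rragb upstream site, chrX:153139819-153139848, strand +: gagagcccgggcCACGTGatggcgggtggc
Rragb upstream site, chrX:153139910-153139939, strand +: aaagggtagcggCACGTGacaggccctggg
Rragb site spanning the start, chrX:153139943-153139972, strand +: acggcaggttccCACGTGatcctggcctgc
Rragc upstream site, chr4:123917309-123917338, strand +: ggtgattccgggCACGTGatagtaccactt

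The sequences directly upstream of 3 start sites are given in full as context for genes whose counts changed in opposite directions while both carry the motif. Atp6v0b, which rose, has 2 copies in the 36 bases before its start, Lamtor1, which rose, has 1 copy beginning 68 bases before, and Fnip1, which fell, has 1 copy beginning 75 bases before. Each runs over the 250 bases before the start, with CACGTG in capitals.
Atp6v0b (chr4:117887330-117887579, strand -): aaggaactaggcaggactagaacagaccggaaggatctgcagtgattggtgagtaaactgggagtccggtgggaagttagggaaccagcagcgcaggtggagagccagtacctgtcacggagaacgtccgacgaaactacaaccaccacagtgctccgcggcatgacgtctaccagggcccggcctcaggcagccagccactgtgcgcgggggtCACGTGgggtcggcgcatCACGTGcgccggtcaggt
Lamtor1 (chr7:101905587-101905836, strand +): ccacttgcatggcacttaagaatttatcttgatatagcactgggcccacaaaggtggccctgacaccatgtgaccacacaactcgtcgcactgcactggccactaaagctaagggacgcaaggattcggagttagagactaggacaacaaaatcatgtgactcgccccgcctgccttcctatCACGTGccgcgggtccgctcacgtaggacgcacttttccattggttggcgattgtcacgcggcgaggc
Fnip1 (chr11:54437929-54438178, strand +): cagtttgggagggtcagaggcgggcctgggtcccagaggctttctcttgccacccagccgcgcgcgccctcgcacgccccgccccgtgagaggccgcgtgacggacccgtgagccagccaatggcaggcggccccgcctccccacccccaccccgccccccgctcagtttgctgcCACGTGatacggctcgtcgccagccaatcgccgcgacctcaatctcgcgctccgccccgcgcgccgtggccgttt

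Except for the a subunit, described below, 1 common form of each pump subunit made up nearly all of its RNA. Levels of different genes were compared as CPM per kb of the longest coding transcript in GENCODE M21. The tissue-restricted V1 forms were at or near background: Atp6v1g3 and Atp6v1e2 had no count in any of the 6 libraries, which allows up to 0.0237 CPM over the 126449917 counts, Atp6v1b1, the form of acid-secreting epithelia, had 2 counts in all, and Atp6v1c2 had 7. Atp6v0d2, the d subunit of osteoclasts and macrophages, had 3 counts in all, where Atp6v0d1 had 12849. The kidney form Atp6v0a4 was tested but held only 57 counts, and the minor forms Atp6v1g2 and Atp6v0e2 made up 2.71% ± 0.225 and 3.56% ± 0.874 (SD, n = 3) of their subunit's level per length in control cells. These 3 minor forms had log2 fold changes of 0.09, -0.13 and -0.12 with standard errors of 0.38, 0.27 and 0.25, so only large changes could have been seen in them. The pseudogene Atp6v0c-ps1 had 3 counts in all and was not tested.

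Among the common V1 and V0 subunits, Atp6v0d1 was the most abundant per length, at 63.2 ± 1.87 CPM per kb in control and 61.7 ± 0.582 in fed cells. Atp6v1f and Atp6v1e1 followed at 50.2 ± 1.69 and 48.9 ± 1.11 in control cells and did not differ from each other beyond their spread. Then came Atp6v0c (36.5 ± 0.646), Atp6v0b (31.5 ± 0.558) and Atp6v0e (30.4 ± 2.63), the last 2 within their spread, and Atp6v1h (28.6 ± 1.32). The catalytic subunit Atp6v1a stood at 24.9 ± 0.682 and its partner Atp6v1b2 at 21.5 ± 0.791. Lowest of the common V1 subunits was Atp6v1d at 10.1 ± 0.277. Atp6ap1 was above all of them, at 106 ± 1.53. The order depends on the length used: with all annotated exon bases in place of the longest coding transcript, Atp6v1e1 stood at 15.6 and Atp6v1h at 6.02 CPM per kb, while Atp6v0d1 kept the top place among the subunits at 57.4.

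**Figure D2:**
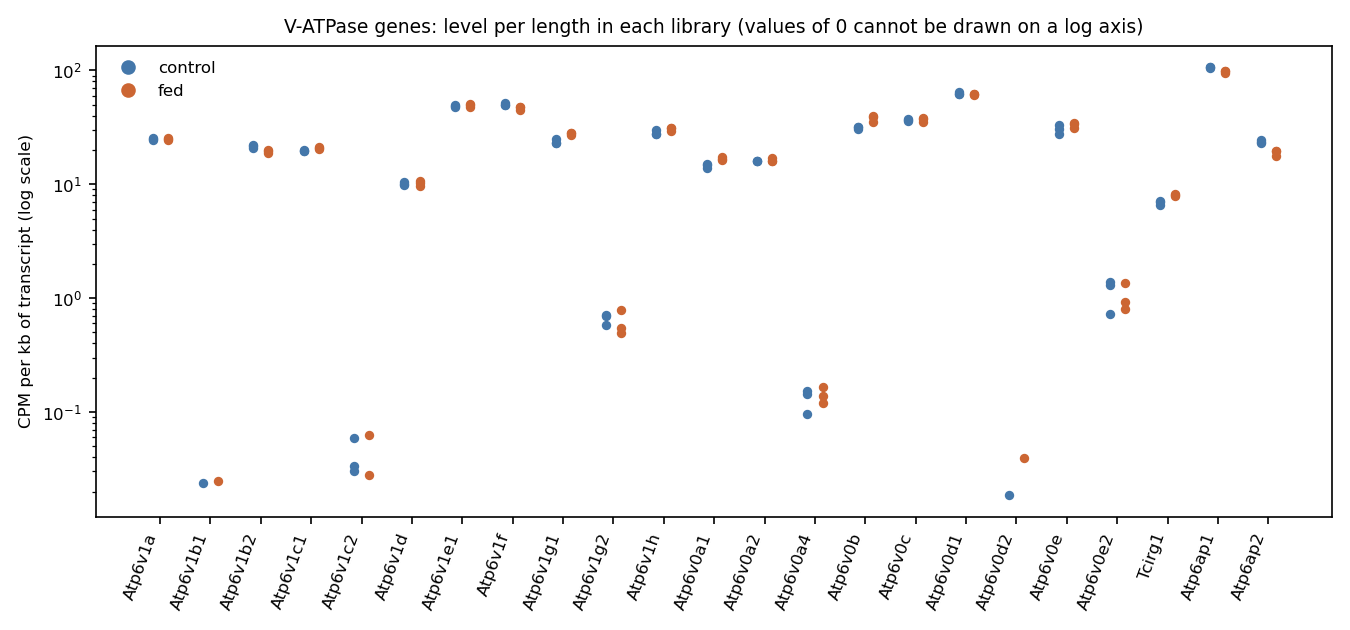
Level of each pump gene in CPM per kb of transcript (log scale) in the 3 control (blue) and 3 fed (orange) libraries. Tcirg1, the third form of the a subunit, is drawn after the other V0 genes. Atp6v1d, with a control mean of 10.1 CPM per kb, is the lowest of the common V1 subunits, while Atp6v1b1, Atp6v1c2 and Atp6v0d2 lie far below; libraries at 0 are not drawn.

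In the V1 sector, which hydrolyses ATP, 1 of 9 tested genes rose and 1 fell (22.2% called, against 39.5% of all genes tested). Atp6v1g1, the G subunit of the stalk that joins the sectors (chromosome 4, 63544772 to 63550750), had 25.9, 28.3 and 26.2 CPM in the control libraries and 31.0, 31.9 and 32.1 CPM in the fed libraries. All fed libraries lay above all control libraries, with a log2 difference of 0.24 (SE 0.0569, adjusted p = 0.00198). Atp6v1b2, the common B subunit that alternates with the catalytic A subunit in the head (chromosome 8, 69088646 to 69113711), had 60.7, 63.1 and 58.7 CPM in the control libraries and 53.1, 55.0 and 56.4 CPM in the fed libraries. It was lower in every fed library, with a log2 difference of -0.15 (SE 0.0454, adjusted p = 0.0124), but the call was lost without control replicate 2 (0.0858) or fed replicate 1 (0.0508) and also in DESeq2 (0.0519). Atp6v1a, the catalytic subunit, had 103, 109 and 105 CPM in the control and 105, 108 and 105 CPM in the fed libraries, with overlapping groups and a log2 difference of 0.01 (SE 0.0384, adjusted p = 0.908). The remaining V1 genes did not pass. Atp6v1c1, which helps attach V1 to V0, and Atp6v1h, a regulatory subunit, had log2 fold changes of 0.08 and 0.09, the former with no overlap between groups. Atp6v1f had -0.09, also without overlap, and the stalk genes Atp6v1d and Atp6v1e1 both had 0.01. Summed over the 13 genes, V1 RNA came to between 428 and 446 CPM in control and between 429 and 446 CPM in fed libraries, so the ranges coincided.

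In the membrane V0 sector 2 of 8 tested genes rose and none fell (25.0% called, against 39.5% of all genes tested). At an unadjusted p under 0.05 the edgeR counts were 3 and 0, and both DESeq2 and limma-voom gave 2 and 0. Atp6v0b, a subunit of the proton-carrying ring (chromosome 4, 117884326 to 117887333), had 30.9, 31.9 and 31.8 CPM in the control libraries and 40.0, 39.3 and 35.1 CPM in the fed libraries. The fed libraries were all above the control libraries, fed replicate 3 being the closest, with a log2 difference of 0.28 (SE 0.0573, adjusted p = 0.000669). Of its exon bases, 11.8% lie opposite the predicted gene Gm12841, whose counts are not used here. Atp6v0a1, a form of the large a subunit that lines the proton path (chromosome 11, 101009452 to 101063719), had 60.8, 58.7 and 55.2 CPM in the control libraries and 69.2, 65.9 and 67.5 CPM in the fed libraries. Its groups were also apart, with a log2 difference of 0.21 (SE 0.0452, adjusted p = 0.000829). Both calls held under each of the 14 alternatives. Another ring gene, Atp6v0c, had 42.4, 43.9 and 43.2 CPM in the control and 42.0, 45.5 and 44.6 CPM in the fed libraries, with overlapping groups and a log2 difference of 0.03 (SE 0.0490, adjusted p = 0.661). Atp6v0a2, the a form best known from the Golgi, was at 85.1 ± 0.0668 and 86.9 ± 3.17 CPM (adjusted p = 0.583), and Atp6v0d1, which links the ring to the central stalk, had a log2 fold change of -0.03. Atp6v0e missed the threshold with a log2 difference of 0.13 at an adjusted p of 0.0863, and passed without control replicate 3 (0.00379) or fed replicate 1 (0.0355), with library totals only (0.0467), with no filter on low counts (0.010) and with a replicate block (0.0055). Summed over the 9 genes, V0 RNA was between 399.5 and 414.0 CPM in control and between 426 and 436 CPM in fed libraries. These ranges did not overlap, but the sum includes Atp6v0b and Atp6v0a1 and is no further support for their calls. Over all 22 V1 and V0 genes the ranges overlapped, at 832.4 to 859.8 CPM in control and 854.6 to 881.2 CPM in fed libraries.

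The a subunit has 4 forms, of which Atp6v0a4 made up 0.348% per length in control cells, and Tcirg1, the form of the osteoclast pump, was on a list of related genes. Tcirg1 had 21.3, 20.0 and 21.5 CPM in the control libraries and 24.1, 24.8 and 24.5 CPM in the fed libraries, and rose with a log2 difference of 0.22 (SE 0.0608, adjusted p = 0.00585). Per length, Atp6v0a1 made up 38.8% ± 1.23 of a subunit RNA in control and 40.8% ± 0.931 in fed cells, Atp6v0a2 42.5% ± 0.813 and 39.4% ± 0.946, and Tcirg1 18.4% ± 0.779 and 19.5% ± 0.494 (SD, n = 3 each). The share of Atp6v0a2 was lower in every fed library than in every control library. Shares within a family are parts of a whole, and Atp6v0a1 and Tcirg1 rose while Atp6v0a2 was not called. The lower share is therefore no sign of a fall in Atp6v0a2 itself. Of the osteoclast markers, Calcr and Dcstamp had no count in any library, and the 8 osteoclast markers, among them Ctsk and Itgb3 which stromal cells also express, summed to between 92.6 and 96.0 CPM in control and between 86.6 and 88.4 CPM in fed libraries.

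Both accessory genes of the pump fell, where 19.0% of all genes tested were called lower. Atp6ap2, the (pro)renin receptor, whose product is needed for pump assembly (chromosome X, 12587801 to 12617049), had 55.1, 53.7 and 57.0 CPM in the control libraries and 41.4, 45.4 and 45.4 CPM in the fed libraries. The 3 fed libraries lay well below the control libraries, with a log2 difference of -0.33 (SE 0.0494, adjusted p = 2.46e-05), the smallest adjusted p among the 47 genes. Atp6ap1, a glycoprotein bound to the V0 sector inside the lysosome (chromosome X, 74297097 to 74304721), had 235, 229 and 235 CPM in the control libraries and 208, 215 and 215 CPM in the fed libraries. It fell with a log2 difference of -0.13 (SE 0.0356, adjusted p = 0.00614). Both genes were called in each of the 14 alternatives. For each Atp6ap1 count there were 0.235, 0.234 and 0.243 Atp6ap2 counts in control and 0.199, 0.211 and 0.211 in fed libraries, so Atp6ap2 was lower even relative to its partner.

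Ragulator genes moved apart. Of the 5 genes, Lamtor1 and Lamtor4 rose, Lamtor2 fell, and Lamtor3 and Lamtor5 did not pass. That is 60.0% called, against 39.5% of all genes tested. Lamtor1, the lipid-anchored protein that wraps around the rest of the scaffold (chromosome 7, 101905904 to 101926675), had 91.0, 99.0 and 96.5 CPM in the control libraries and 103, 109 and 105 CPM in the fed libraries. The groups did not overlap, with a log2 difference of 0.15 (SE 0.0414, adjusted p = 0.00722), and the call was lost without fed replicate 2 (0.0530). On the opposite strand Lrrc51 covers 18.7% of its exon bases and had between 22 and 42 counts a library, far fewer than Lamtor1. Lamtor4, of the outer pair Lamtor4 and Lamtor5 (chromosome 5, 138255482 to 138259398), had 22.3, 25.1 and 26.8 CPM in the control libraries and 26.8, 29.0 and 30.0 CPM in the fed libraries. The lowest fed library and the highest control library nearly touched, with a log2 difference of 0.22 (SE 0.0685, adjusted p = 0.0164), and leaving out control replicate 1 (0.111), fed replicate 2 (0.0586) or fed replicate 3 (0.0841) ended the call. Lamtor2, which pairs with Lamtor3 inside the scaffold (chromosome 3, 88549819 to 88553074), had 40.1, 39.6 and 40.7 CPM in the control libraries and 35.1, 35.7 and 33.3 CPM in the fed libraries. Its fed libraries were all lower, with a log2 difference of -0.21 (SE 0.0507, adjusted p = 0.00243), and the call held under each alternative. Its partner Lamtor3 had 21.5 ± 0.459 and 23.3 ± 0.578 CPM, with a log2 difference of 0.11 at an adjusted p of 0.157, and Lamtor5 had 0.04. There were 2.27, 2.50 and 2.37 Lamtor1 counts per Lamtor2 count in control and 2.94, 3.07 and 3.14 in fed libraries.

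None of the 3 tested Rag GTPase genes passed, where 39.5% of all genes tested were called. In edgeR 1 was lower and 0 higher at an unadjusted p under 0.05, and DESeq2 and limma-voom called 0. The Rags work as pairs of RagA or RagB with RagC or RagD. Rraga and Rragc made up 99.5% ± 0.306 and 99.9% ± 0.0320 of the RNA of their kind per length in control cells. Rragd, the form raised by MiT/TFE factors in other tissues, had 3, 4 and 1 counts in the control and 3, 3 and 3 in the fed libraries and could not be tested, and Rragb had 63. Rragc had 106, 112 and 112 CPM in the control libraries and 99.0, 105 and 103 CPM in the fed libraries. Every fed library was below every control library, but at a log2 difference of -0.10 (SE 0.040, adjusted p = 0.0534) the gene missed the threshold, and it passed without control replicate 1 (0.0247), with the stricter filter (0.0379) and with a replicate block (0.0172). Rraga had 63.7, 66.7 and 66.6 CPM in the control and 64.0, 70.1 and 69.6 CPM in the fed libraries, with overlapping groups and a log2 difference of 0.05 (SE 0.0451, adjusted p = 0.407), and Rragb had 0.35 (SE 0.43). Because Rraga and Rragb are close in sequence, reads that match both could be split or lost, and the rule used for such reads is not given in the sources used here.

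The mTOR kinase gene itself had 80.8, 74.0 and 71.9 CPM in the control libraries and 76.9, 74.6 and 73.2 CPM in the fed libraries, with overlapping groups and a log2 difference of -0.01 (SE 0.0457, adjusted p = 0.839). The subunits that give its complexes their identity moved in opposite directions. Rptor, the mTORC1 subunit that binds the Rags and substrates (chromosome 11, 119602905 to 119899576), had 55.4, 57.9 and 58.4 CPM in the control libraries and 63.5, 61.2 and 63.1 CPM in the fed libraries. It was higher in every fed library, with a log2 difference of 0.13 (SE 0.0432, adjusted p = 0.0209). Rictor, which defines mTORC2 (chromosome 15, 6708379 to 6800401), had 33.4, 30.6 and 30.3 CPM in the control libraries and 28.9, 27.4 and 25.1 CPM in the fed libraries. It was lower in every fed library, with a log2 difference of -0.22 (SE 0.0628, adjusted p = 0.00975). Both calls were sensitive to single libraries: that of Rptor was lost when control replicate 1 (0.0935) or either of fed replicates 1 (0.0527) and 3 (0.0574) was left out and also in DESeq2 (0.0820), and that of Rictor without control replicate 1 (0.0568) or fed replicate 3 (0.0734). A ratio of counts within a library does not depend on how libraries are scaled. There were 1.66, 1.89 and 1.92 Rptor counts per Rictor count in control and 2.19, 2.23 and 2.51 in fed libraries. This pair and the others given as ratios were picked with their values in view. Since Rptor was higher and Rictor lower in every fed library, their ratio had to separate and is no further support for either call. The same holds for Lamtor1 with Lamtor2 and for Rheb with Tsc1. Mlst8, shared by both complexes, had a log2 difference of 0.10 at an adjusted p of 0.271, and 22.5% of its exon bases lie opposite Bricd5.

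Rheb rose and its inhibitor Tsc1 fell. Rheb, the GTPase that activates mTORC1 (chromosome 5, 24802823 to 24842624), had 90.4, 87.0 and 97.7 CPM in the control libraries and 106, 102 and 107 CPM in the fed libraries. The groups were apart, with a log2 difference of 0.20 (SE 0.0435, adjusted p = 0.00105), and the call held under each alternative. Tsc1, or hamartin, which stabilises the TSC complex (chromosome 2, 28641228 to 28691167), had 31.3, 27.2 and 27.6 CPM in the control libraries and 25.3, 26.5 and 24.1 CPM in the fed libraries. Its fed libraries were all lower, with a log2 difference of -0.18 (SE 0.0650, adjusted p = 0.0296), and it was no longer called when control replicate 1 (0.186) or either of fed replicates 1 (0.0562) and 3 (0.128) was left out, with library totals only (0.0656) or by DESeq2 (0.0927). Tsc2, the subunit that acts on Rheb, had 116, 118 and 109 CPM in the control libraries and 108, 108 and 111 CPM in the fed libraries. Its groups overlapped, with a log2 difference of -0.07 (SE 0.0395, adjusted p = 0.148). There were 2.89, 3.20 and 3.53 Rheb counts per Tsc1 count in control and 4.19, 3.86 and 4.44 in fed libraries.

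**Figure D3:**
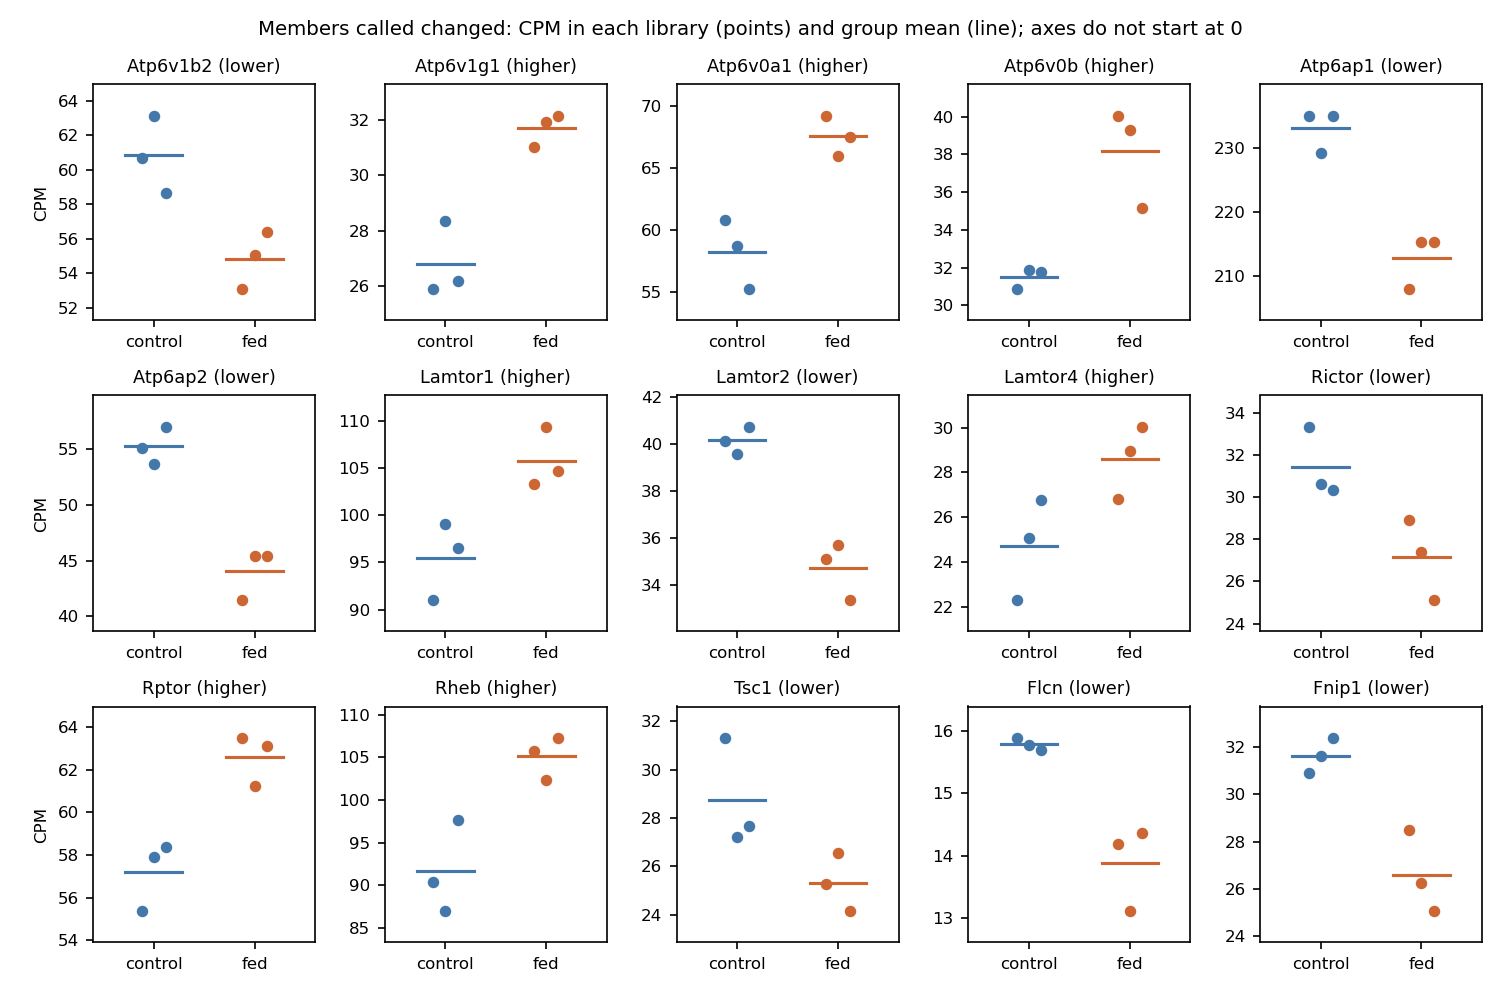
CPM in each of the 3 control (blue) and 3 fed (orange) libraries for the 15 called genes, with the group mean as a line; each panel has its own axis, which does not start at 0. In all panels the fed points lie wholly above or wholly below the control points, and in the panel of Lamtor4 the gap is narrow, from 26.76 CPM in the highest control to 26.81 CPM in the lowest fed library.

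Folliculin and its main partner here fell. Fnip1 (chromosome 11, 54438199 to 54518235) had 30.9, 31.6 and 32.4 CPM in the control libraries and 28.5, 26.3 and 25.1 CPM in the fed libraries. Every fed library was lower, with a log2 difference of -0.25 (SE 0.0594, adjusted p = 0.00207), a call that held under each alternative. Flcn, which as a complex with FNIP proteins stimulates GTP hydrolysis on RagC and RagD (chromosome 11, 59791408 to 59810016), had 15.9, 15.8 and 15.7 CPM in the control libraries and 14.2, 13.1 and 14.4 CPM in the fed libraries. The control libraries were nearly equal and the fed libraries all lay below them, with a log2 difference of -0.19 (SE 0.0707, adjusted p = 0.0423), the weakest call of the 15: it was lost under 8 of 14 alternatives, with adjusted p values up to 0.177, among them leaving out any 1 of control replicates 1 (0.0880), 2 (0.0935) and 3 (0.0715) or of fed replicates 1 (0.0586) and 2 (0.172). Fnip2, the other partner, had 7.55, 9.21 and 8.69 CPM in the control libraries and 10.1, 9.15 and 9.03 CPM in the fed libraries. It overlapped between groups, with a log2 difference of 0.15 (SE 0.0985, adjusted p = 0.245). There were 0.244, 0.292 and 0.268 Fnip2 counts per Fnip1 count in control and 0.353, 0.349 and 0.36 in fed libraries, without overlap. Of this group 2 of 3 fell and 0 rose (66.7% called, against 39.5% of all genes tested). The number higher was 0 also at an unadjusted p under 0.05 and by DESeq2 and limma-voom.

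**Figure D4:**
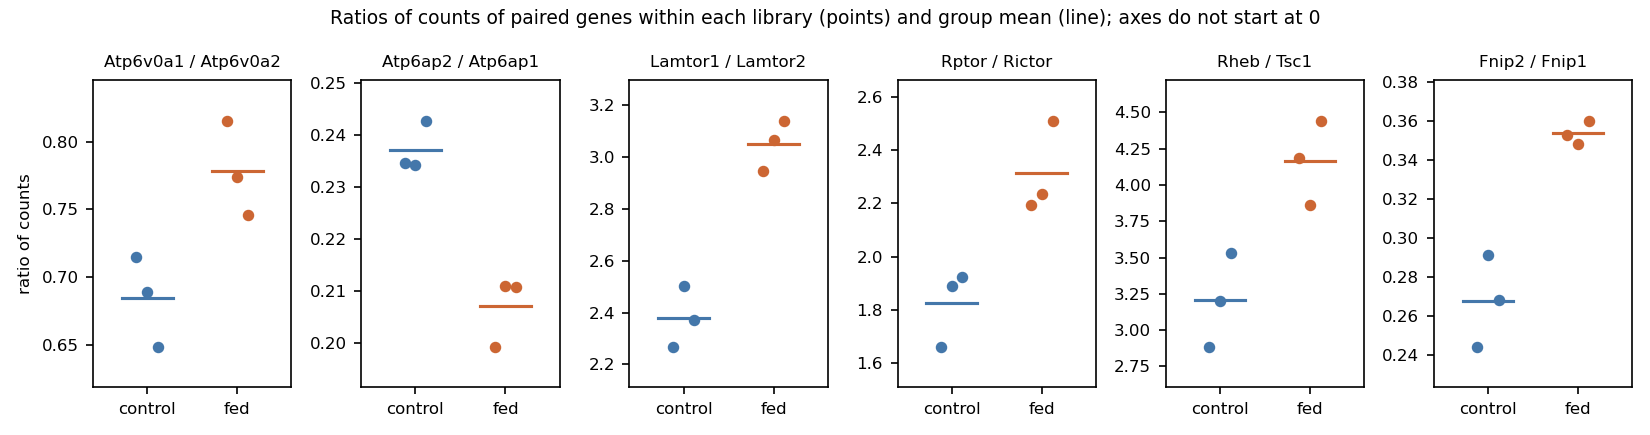
Ratios of counts between paired genes in each control (blue) and fed (orange) library, with the group mean as a line; panels have their own axes, which do not start at 0. These pairs were picked with their values in view and have no test; the mean ratio of fed to control was 1.14 for Atp6v0a1 to Atp6v0a2, 0.872 for Atp6ap2 to Atp6ap1, 1.28 for Lamtor1 to Lamtor2, 1.27 for Rptor to Rictor, 1.30 for Rheb to Tsc1 and 1.32 for Fnip2 to Fnip1.

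GATOR1, the complex that inactivates RagA and RagB when amino acids are scarce, showed no called change. None of Depdc5, Nprl2 and Nprl3 passed in edgeR, at an unadjusted p under 0.05, in DESeq2 or in limma-voom, each giving 0 of 3. In edgeR 39.5% of all genes tested were called, and 3 genes are too few to set against that share. Depdc5 stood at 31.7 ± 1.44 CPM in control cells against 30.3 ± 0.661 in fed cells, a log2 difference of -0.07 (SE 0.0555, adjusted p = 0.352). Nprl2 and Nprl3 had log2 fold changes of 0.04 ± 0.10 and 0.09 ± 0.080 (SE), and 17.7% of the exon bases of Nprl3 lie opposite Mpg. Castor1, a cytosolic arginine sensor that acts upstream of GATOR1, had 15.8, 17.1 and 15.5 CPM in the control and 14.4, 16.5 and 16.0 CPM in the fed libraries. The groups overlapped, with a log2 difference of -0.04 (SE 0.074, adjusted p = 0.660).

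Other genes of the pathway were taken from 4 lists chosen by function, of pump assembly and regulation, GATOR and amino acid sensors, inputs and substrates of the mTOR complexes, and MiT/TFE factors. On the first list, 3 of 15 tested genes rose and 2 fell (33.3% called, against 39.5% of all genes tested). Clcn7, the lysosomal chloride and proton exchanger, rose from 67.8 ± 3.40 to 78.2 ± 1.22 CPM, a log2 difference of 0.21 (SE 0.0436, adjusted p = 0.000774), and Rogdi, of the RAVE-like assembly factor, had 0.37. Dmxl1, another component of that assembly factor, had a log2 fold change of -0.22, and Tmem9, a V-ATPase-binding membrane protein, -0.17. The list's median was 0.00. Rnasek, a pump-associated gene, had at most 0.347 CPM in any library and was not tested; 67.7% of its exon bases are shared with Gm21988 on the same strand, so reads there may not have been assigned to it.

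On the list of GATOR, KICSTOR and amino acid sensors, 3 of 24 tested genes rose and 10 fell (54.2% called, against 39.5% of all genes tested, of which 20.5% were higher and 19.0% lower), and the median log2 difference was -0.11. The number that fell was 6 without control replicate 2 and 6 with library totals only. Sesn2 and Sesn3 encode sestrins, which hold GATOR2 back. Sesn2 had 48.7, 50.9 and 49.3 CPM in the control libraries and 32.0, 33.9 and 34.1 CPM in the fed libraries. Sesn3 had 85.7, 85.2 and 81.2 CPM in the control libraries and 58.6, 53.1 and 59.0 CPM in the fed libraries. The groups were far apart for both, with a log2 difference of -0.57 (SE 0.0495, adjusted p = 1.88e-08) and a log2 difference of -0.56 (SE 0.0462, adjusted p = 1.06e-08). The Castor1 relative Castor2, listed as Gatsl2, fell by 0.27 on the log2 scale and the GATOR2 subunit Mios by 0.26. The largest fall on the list, singled out after its value was seen, was that of Rnf152, a ubiquitin ligase acting on RagA, at a log2 difference of -1.32 (SE 0.28, adjusted p = 0.000864) from a low level, 1.44, 1.28 and 1.26 CPM in control and 0.694, 0.506 and 0.396 CPM in fed libraries. Those that rose were Sh3bp4, a negative regulator of the Rags (0.25), the GATOR2 and nuclear pore protein Sec13 (0.16) and the KICSTOR subunit Itfg2 (0.25). The call of Itfg2 was lost without either of control replicates 1 (0.0561) and 2 (0.0586), without fed replicate 3 (0.0811) and also in DESeq2 (0.0799).

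On the list of inputs and substrates, 7 of 31 tested genes rose and 6 fell (41.9% called, against 39.5% of all genes tested, with a median of 0.00), but DESeq2 called 3 higher and the stricter filter on low counts 4. Ddit4, which releases the TSC complex to restrain mTORC1, had 87.9, 89.6 and 92.4 CPM in the control libraries and 37.3, 34.4 and 37.4 CPM in the fed libraries, a log2 difference of -1.31 (SE 0.0461, adjusted p = 1.67e-13). Lpin1 and Ulk1, whose proteins are phosphorylated by mTORC1, had log2 differences of -0.46 and -0.31, and the adaptor Grb10 of -0.19, all called lower. Prr5, a subunit of mTORC2 beside Rictor, had 9.36, 10.4 and 9.74 CPM in the control libraries and 14.3, 13.6 and 13.7 CPM in the fed libraries. It rose, with a log2 difference of 0.49 (SE 0.0791, adjusted p = 4.64e-05), while Rictor fell. Akt1 and its activating kinase gene Pdpk1 had log2 fold changes of 0.20 and 0.14 and the AMPK subunit Prkaa2, which was low at 1.33 ± 0.0582 CPM in control cells, 0.88. The call of Pdpk1 was lost by DESeq2 (0.0572). The largest rise on the list, also singled out after its value was seen, was that of Prr5l, a relative of Prr5, at 1.28 (SE 0.42, adjusted p = 0.0203) on 3, 7 and 9 counts in control and 14, 23 and 12 in fed libraries. That call did not hold in DESeq2 (0.0717) or when any 1 of control replicates 1 (0.113) and 2 (0.0517) or fed replicate 2 (0.138) was left out.

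Of the MiT/TFE factors, Tfeb was low and rose, Tfe3 was the most abundant, and Tfec, with at most 0.142 CPM in any library, was not tested. Among the 3 tested, 1 rose and 1 fell (66.7% called, against 39.5% of all genes tested). Tfeb had 6.07, 6.89 and 7.37 CPM in the control libraries and 8.87, 8.23 and 9.03 CPM in the fed libraries. The fed libraries were all higher, with a log2 difference of 0.36 (SE 0.10, adjusted p = 0.00788), and the call was lost without control replicate 1 (0.0520). Tfe3 had 73.2, 77.5 and 70.2 CPM in the control libraries and 69.5, 68.0 and 66.9 CPM in the fed libraries. It stood at a log2 difference of -0.11 (SE 0.0440, adjusted p = 0.0465), and this call was lost under 9 of 14 alternatives, including leaving out any 1 of control replicates 1 (0.0680) and 2 (0.271) or of fed replicates 2 (0.115) and 3 (0.144). Mitf had overlapping groups and a log2 difference of -0.22 (SE 0.11, adjusted p = 0.125), and it passed without control replicate 3 (0.0236).

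**Figure D5:**
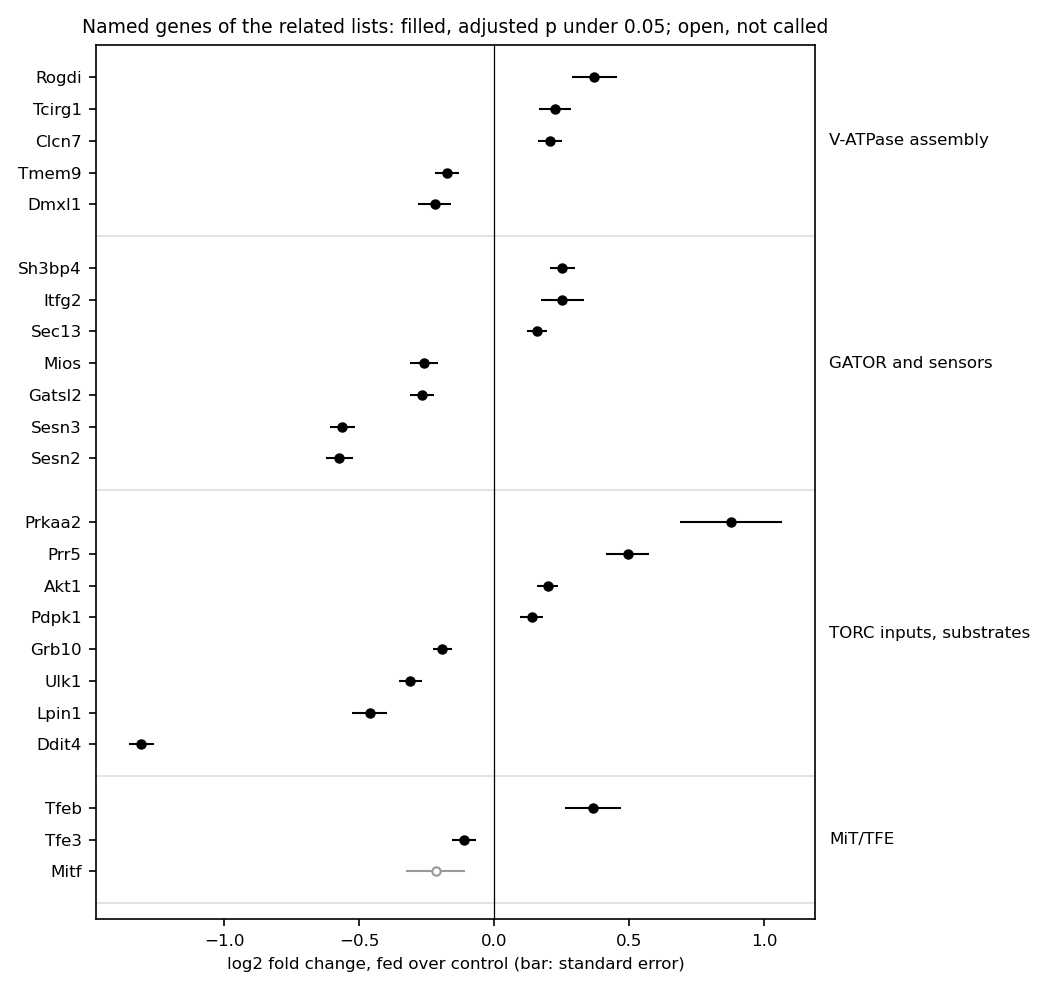
Log2 fold change of fed over control cells (x axis) with standard error for the genes named from the related lists; filled points passed an adjusted p under 0.05. Rnf152 and Prr5l are not drawn; of the genes drawn, Ddit4 lies farthest to the left at -1.31 and Prkaa2 farthest to the right at 0.88, both outside the range of -0.33 to 0.28 covered by the called pump, Ragulator, Rag and mTOR genes.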

How the data were processed

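The tools named in the submitters' processing notes are Trimmomatic 0.36, STAR 2.6.0c, featureCounts of Subread 1.6.1 and MultiQC 1.5 with build GRCm38. The authors deposited whole-number counts of reads for each gene symbol, used here as they stand. Not given in the sources used here: annotation release, strand setting, and the handling of reads matching more than 1 gene.

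Genes were kept by filterByExpr, libraries scaled by TMM, and fed compared with control in edgeR 4.0.16 (R 4.3.3) with its quasi-likelihood test, robust estimation on, all 6 libraries and no replicate block. Adjusted p values are Benjamini-Hochberg over all 13092 genes tested. CPM are counts over the TMM-scaled total of the tested genes, times 1e6. Depth, 19069074 to 22410047 counts, was similar in all libraries; no pair within a group agreed within sampling noise, so none was treated as 1 library deposited again, which does not show that they are independent cultures. Coordinates, lengths and exon overlaps came from GENCODE M21 (GRCm38), promoters from RefSeq.

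The genes and lists were chosen with earlier results of these data known. Named are the 47 genes, up to 4 called genes per direction and related list, and Tfeb, Tfe3, Mitf, Ddit4, Sesn2 and Tcirg1; Rnf152, Prr5l, genes of other cell types and overlapping genes were named after their values were seen. Of the related lists, Kics2, Bmt2 and their aliases were matched to no symbol and are not analysed here. The 14 alternatives refitted all genes: RLE scaling, library totals only, no filter, a stricter filter, DESeq2 1.42.0, limma-voom (limma 3.58.1), no robust estimation, the replicate block, and each library left out.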

Additional observations from a re-analysis of the deposited data

How the results depend on the processing

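Of the 15 called genes of the pump and mTOR machinery, 8 kept the call under all 14 refits and 7 lost it under at least 1, with no change of direction among called genes; 3 genes not called (Atp6v0e, Atp6v1h and Rragc) passed under some. Of these genes, 8 fell; 5 fell by DESeq2, 5 at an adjusted p under 0.01, and between 5 and 7 with a library left out. Of the GATOR and sensor list 10 fell, 6 with library totals only and between 6 and 11 with a library left out. On the list of inputs and substrates 7 rose, 4 with the stricter filter and 3 by DESeq2. Of the MiT/TFE factors 1 rose, and between 0 and 1 with a library left out; 1 fell, but 0 with library totals only, without a filter, by DESeq2, by limma-voom or without robust estimation, and between 0 and 2 with a library left out. Libraries of the same number were not shown to be paired: deviations of same-numbered libraries correlated at 0.289, 0.0333 and 0.169, and fed replicate 2 correlated best with control replicate 3 (0.100). With a replicate block, 8 genes of the pump and mTOR machinery rose and 9 fell, and over all genes 2989 rose and 2859 fell, against 2682 and 2493. Library totals only moved the median of all genes by 0.03 (log2) and gave 3183 higher and 2029 lower. Depth limits Atp6v0a4, Atp6v1g2, Atp6v0e2 and Rragb, whose standard errors were between 0.249 and 0.43.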
